A study of Ovis aries with 12 samples.

Results

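The genes described here are 10 markers of GABAergic interneuron classes: LHX6, PVALB, SST, NPY, NDNF, LAMP5, RELN, CCK, CNR1 and ERBB4. They were chosen by gene symbol from the 33609 genes of the count table. Of the 10, 9 carried their symbol in the table and ERBB4 was matched through its NCBI GeneID (101103044), because its row had a placeholder name. The hippocampus of adult Ile-de-France ewes was studied in 6 control ewes and 6 ewes under chronic stress, and the aim given for the series was the effect of such stress on behaviour, plasticity and transcription. Each library held RNA of 2 ewes mixed in equal amounts, which gave 3 libraries in each of 4 groups: dorsal control, dorsal stress, ventral control and ventral stress. No genotype, drug or time point was labelled, and the kind of stress is not stated. The prefix of the dorsal libraries is read as dorsal in the series record, which does not say if they held more than the dentate gyrus. Both regions came from the same ewes, so p-values measure the spread between pools of RNA and treat as independent pools that may share animals.

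Inhibitory interneurons make GABA and are sorted into classes by the transcription factors, peptides and calcium-binding proteins that they express. Cells born in the medial ganglionic eminence keep LHX6 and include the parvalbumin and somatostatin classes and, in the hippocampus, ivy and many neurogliaform cells. Cells born in the caudal ganglionic eminence include the VIP and calretinin classes and the basket cells that carry cholecystokinin and the CNR1 receptor. Several of these markers are shared with other cells: pyramidal cells can express CCK and CNR1, and Cajal-Retzius cells are a classical source of RELN. In whole tissue, fewer cells of a class and less RNA per cell cannot be told apart.

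Library totals ran from 12254743 counts (dorsal stress 3) to 53775720 counts (dorsal control 1), and each dorsal control library was deeper than each dorsal stress library. No library repeated another of its group: for the closest libraries of a group, chi-square over genes divided by its degrees of freedom was 19.7. Libraries of different groups were not compared in this way. GAD1, GAD2 and SLC32A1, which make GABA and load it into vesicles, were measured in every library. Their mean log2 level (log2 CPM, where CPM is a gene's share of the library's counts on a fixed scale) was 5.826 to 6.039 in the 6 dorsal libraries and 6.167 to 6.452 in the 6 ventral ones. Levels below are CPM normalised by the trimmed mean of M-values. They are not divided by gene length, so they compare 1 gene across libraries and not 2 genes with each other.

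**Figure D1:**
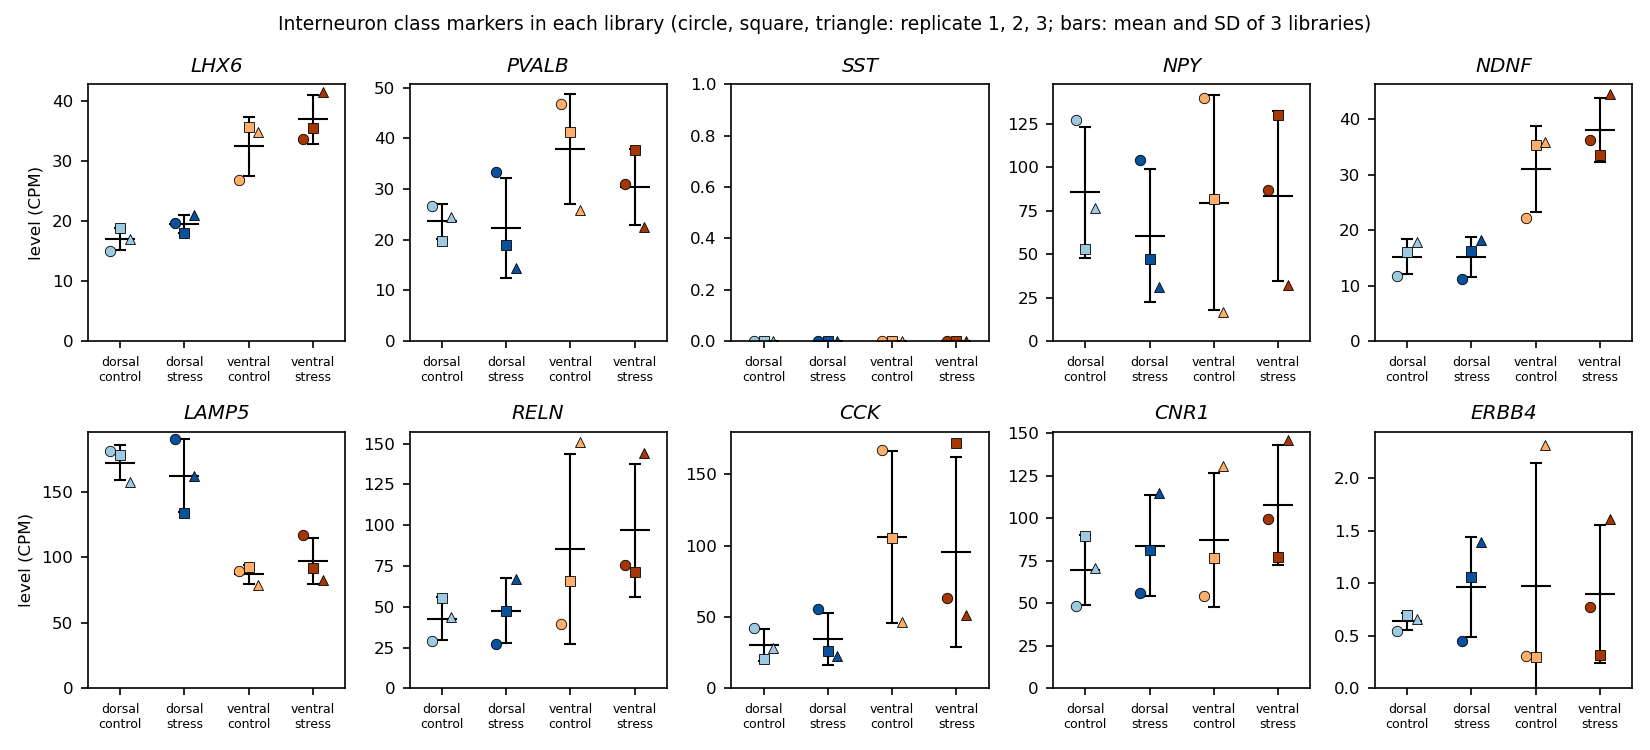
Level of the 10 interneuron markers (CPM, linear axis from 0, 1 panel per gene) in the 12 libraries, by region and condition; symbols are libraries and bars are mean and SD of 3 libraries. LHX6 and NDNF lie higher and LAMP5 lower in each ventral library than in each dorsal one, and SST is at 0 throughout.

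Between dorsal and ventral hippocampus, LHX6 and NDNF were lower and LAMP5 was higher on the dorsal side, each by about the same factor in control and stressed ewes. CCK and RELN had lower dorsal means but varied widely between libraries of the same group. PVALB, NPY, CNR1 and ERBB4 did not pass the test. The edgeR quasi-likelihood test over all genes called 3 of the 9 markers with counts (adjusted p under 0.05), 1 higher and 2 lower in dorsal. Over all 17806 genes tested, 4.51% were called, 1.44% higher and 3.07% lower. The median log2 fold change (dorsal over ventral) of the 9 markers was -0.57, against -0.02 for all genes tested. All 9 passed the filter on low counts, and SST did not.

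LHX6, the LIM homeobox factor of interneurons from the medial ganglionic eminence, was at 15.1, 18.9 and 17.0 CPM in the dorsal control libraries and at 19.7, 18.0 and 21.0 CPM in dorsal stress. In the ventral libraries it was at 26.8, 35.8 and 34.9 CPM in control and 33.8, 35.5 and 41.5 CPM in stress. Each ventral library lay above each dorsal one. Over both conditions the log2 fold change was -0.93 ± 0.13 (SE), a level 1.9-fold lower in dorsal (adjusted p = 0.0038, edgeR). The order of the group means was dorsal control (17.0 ± 1.88 CPM, SD, n = 3), dorsal stress (19.6 ± 1.51), ventral control (32.5 ± 4.93) and ventral stress (37.0 ± 4.03). Neighbours within a region overlapped, and the regions did not.

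NDNF encodes a secreted neurotrophic factor that marks neurogliaform cells in cortex. Its dorsal levels were 11.8, 16.0 and 17.9 CPM in control and 11.2, 16.2 and 18.2 CPM in stress. Ventral control had 22.2, 35.3 and 35.9 CPM, and ventral stress 36.2, 33.5 and 44.6 CPM. The lowest ventral library, ventral control 1, was still above the highest dorsal one. NDNF was thus 2.27-fold lower in dorsal, a log2 fold change of -1.18 ± 0.19 (adjusted p = 0.00648, edgeR). Dorsal control (15.2 ± 3.12 CPM, SD, n = 3) and dorsal stress (15.2 ± 3.58) had the same mean, followed by ventral control (31.1 ± 7.77) and ventral stress (38.1 ± 5.79), whose libraries overlapped.

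LAMP5, a membrane protein of the same neurogliaform class, had the opposite sign. It was at 181, 178 and 157 CPM in dorsal control and 190, 134 and 162 CPM in dorsal stress. The ventral libraries had 89.4, 92.2 and 78.8 CPM in control and 117, 92.0 and 82.5 CPM in stress. Each dorsal library lay above each ventral one, with dorsal stress 2 the lowest dorsal and ventral stress 1 the highest ventral value. Dorsal over ventral was 1.82-fold, a log2 fold change of 0.86 ± 0.13 (adjusted p = 0.00485, edgeR). The group means ran from ventral control (86.8 ± 7.09 CPM, SD, n = 3) and ventral stress (97.1 ± 17.7) to dorsal stress (162 ± 27.7) and dorsal control (172 ± 13.2), and neighbours within a region overlapped. Thus 2 markers of the neurogliaform class differed between the regions in opposite directions in whole tissue. Which cells the RNA of either gene came from was not tested. The groups of 6 dorsal and 6 ventral libraries did not overlap for these 3 of the 9 markers, 1 higher and 2 lower in dorsal. Of all genes tested 4.90% did not overlap, 1.98% higher and 2.93% lower.

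The calls of LHX6, NDNF and LAMP5 over both conditions held when each of the 12 libraries was left out in turn, with adjusted p up to 0.0184, 0.0235 and 0.0187 (edgeR). They ended with the mean of GAD1, GAD2 and SLC32A1 as a covariate, a fit in which the log2 fold changes were -0.86, -1.5 and 0.77 and 0 of all 17806 genes were called. The values of that mean in the 2 regions do not overlap, so the covariate and the region cannot be told apart.

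CCK encodes cholecystokinin, the peptide of a class of basket cells. The dorsal libraries had 42.4, 20.4 and 28.3 CPM in control and 55.6, 26.1 and 22.5 CPM in stress. The ventral libraries had 167, 105 and 46.2 CPM in control and 63.2, 172 and 51.1 CPM in stress. Ventral control 3 and ventral stress 3 lay within the dorsal range, below dorsal stress 1, and the other ventral libraries lay above it. The log2 fold change was -1.63 ± 0.42, or 3.1-fold lower in dorsal, with a 95% interval of -2.56 to -0.70 that does not include 0, but it did not pass the test over all genes (adjusted p = 0.0561, edgeR). Without ventral control 3 it did (-1.81, adjusted p = 0.0277), and likewise without dorsal stress 1 (-1.89, adjusted p = 0.0477). DESeq2 called it as well (-1.63, adjusted p = 0.00214). With the choroid plexus score as covariate, explained below and nearly following region, the value was -0.24 (adjusted p = 0.775).

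RELN, the secreted glycoprotein reelin, was at 28.9, 55.3 and 43.4 CPM in dorsal control and 27.4, 47.6 and 67.2 CPM in dorsal stress. It was at 39.2, 65.5 and 151 CPM in ventral control and 75.3, 71.2 and 144 CPM in ventral stress. Ventral control 1 and ventral control 2 lay inside the dorsal range, and the remaining ventral libraries lay above it. Dorsal over ventral, its log2 fold change was -1.02 ± 0.36 (95% interval -1.82 to -0.21, adjusted p = 0.195, edgeR). With the choroid plexus score as covariate it was -2.19 (adjusted p = 0.046).

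PVALB encodes the calcium-binding protein of fast-spiking basket and axo-axonic cells. Levels in dorsal control were 26.6, 19.7 and 24.5 CPM, and in dorsal stress 33.3, 18.9 and 14.5 CPM. Ventral control had 46.8, 41.2 and 25.8 CPM, and ventral stress 30.9, 37.6 and 22.6 CPM. The regions overlapped, and the log2 fold change was -0.57 ± 0.24 (95% interval -1.10 to -0.03, adjusted p = 0.313, edgeR).

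NPY, the neuropeptide of ivy cells and of many somatostatin cells, was at 127, 53.1 and 76.5 CPM in dorsal control and 104, 47.0 and 30.9 CPM in dorsal stress. In ventral control it was at 140, 81.6 and 16.7 CPM, and in ventral stress at 86.8, 130 and 32.5 CPM. Both the lowest and the highest of the 12 values were ventral control libraries, so that 1 group spanned the range of all others. The log2 fold change between the regions was -0.18 ± 0.52 (95% interval -1.32 to 0.97, adjusted p = 1, edgeR).

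CNR1, the main cannabinoid receptor of neurons, had 48.4, 89.5 and 70.6 CPM in dorsal control and 55.9, 81.1 and 115 CPM in dorsal stress. Ventral control had 54.3, 76.4 and 131 CPM and ventral stress 99.6, 77.3 and 146 CPM. The groups overlapped, with a log2 fold change of -0.34 ± 0.28 (95% interval -0.95 to 0.27, adjusted p = 0.814, edgeR). The row matched to ERBB4, the neuregulin receptor of many interneurons, had only 6 to 83 counts per library. Its placeholder name leaves unsettled whether it covers the whole gene, so its levels are those of that row. Its levels were 0.551, 0.697 and 0.664 CPM in dorsal control, 0.448, 1.06 and 1.39 CPM in dorsal stress, 0.312, 0.298 and 2.32 CPM in ventral control and 0.774, 0.316 and 1.61 CPM in ventral stress. Ventral control 3 was the highest and ventral control 2 the lowest. The log2 fold change was -0.28 ± 0.60 (95% interval -1.60 to 1.05, adjusted p = 1, edgeR).

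SST, the peptide gene of the somatostatin class (GeneID 443006), was listed at 0 counts in all 12 libraries. A floor of 3 counts corresponds to 0.0558 to 0.245 CPM, which covers counting error only. HAX1, SMDT1 and SNRPN, genes that nearly all neurons or all cells use and which were picked out after their values were seen, are also listed at 0. In all, 593 genes with a symbol had no count in any library. The 0 of SST is therefore given as listed, and no level is read from it.

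**Figure D2:**
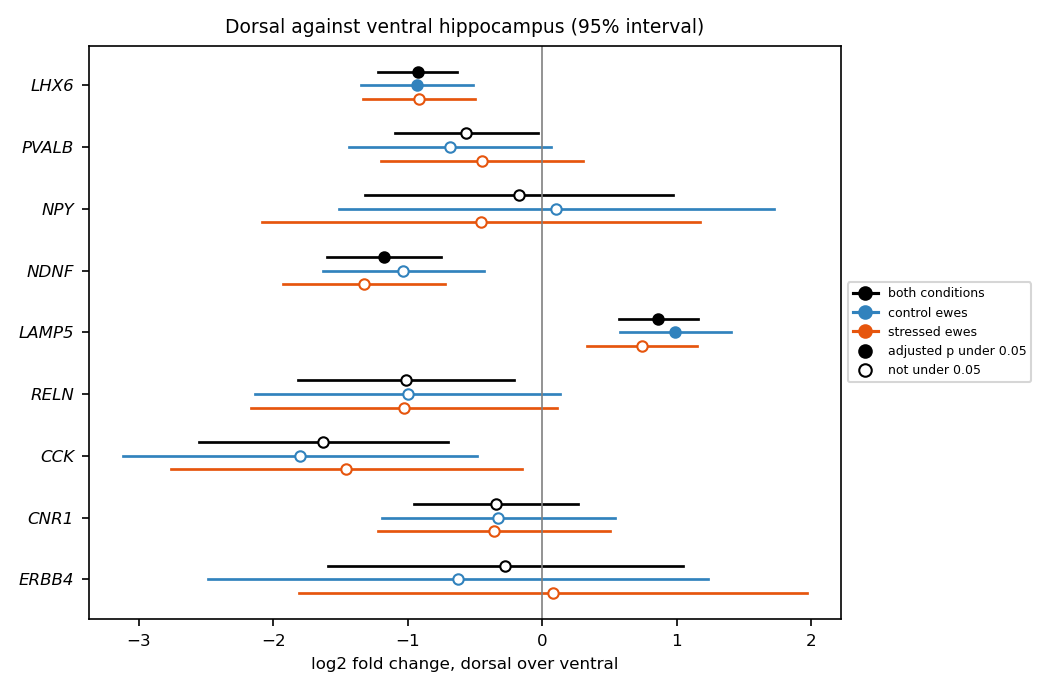
Log2 fold change (dorsal over ventral) of the 9 markers with counts, with 95% intervals, over both conditions and in control and stressed ewes. Over both conditions LHX6 (-0.93) and NDNF (-1.18) lie left of 0 and LAMP5 (0.86) right of it; filled points have an adjusted p under 0.05.

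Taken in control ewes alone, the dorsal to ventral comparison called 2 of the 9 markers, LHX6 (lower) and LAMP5 (higher in dorsal), against 1.00% of all genes tested, 0.247% higher and 0.753% lower. The log2 fold change of LHX6 was -0.94 ± 0.19 (adjusted p = 0.0485, edgeR) and that of LAMP5 was 0.99 ± 0.19 (adjusted p = 0.0375, edgeR). NDNF had -1.03 ± 0.27 (adjusted p = 0.137) and CCK -1.80 ± 0.60 (adjusted p = 0.28, edgeR). In these ewes 4 of the 9 markers had groups that did not overlap, LHX6, NDNF and CCK lower and LAMP5 higher in dorsal, against 11.7% of genes tested, 5.44% higher and 6.22% lower. These calls were close to the threshold. Omission of 1 library ended the call of LHX6 for 11 of the 12 libraries, all but ventral control 1, with adjusted p up to 0.206. It ended the call of LAMP5 for 10 of the 12, all but dorsal stress 1 and ventral stress 1, with adjusted p up to 0.171. With no filter on low counts neither was called (adjusted p = 0.0865 and 0.0511, edgeR). With the choroid plexus score as covariate both had an adjusted p of 0.108. That score does not overlap between the regions in control ewes, so it cannot be told apart from region there.

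In stressed ewes edgeR called 0 of the 9 markers, against 0.444% of all genes tested, and 4 had an unadjusted p under 0.05, against 7.86% of genes. DESeq2 called 3 of them: LHX6, NDNF and LAMP5. The sizes were near those in control ewes: LHX6 had a log2 fold change of -0.92 ± 0.19 and NDNF of -1.33 ± 0.27, each with an adjusted p of 0.0773 (edgeR). LAMP5 had 0.74 ± 0.19 (adjusted p = 0.136, edgeR). The groups did not overlap for 4 of the 9, LHX6, NDNF and RELN lower and LAMP5 higher in dorsal, against 13.7% of genes tested, 6.08% higher and 7.67% lower. Leaving out ventral control 1, which enters only the shared estimate of the spread here, gave 2 calls: LHX6 (adjusted p = 0.0444) and NDNF (adjusted p = 0.0418, edgeR). Whether the regional difference itself changed with stress was tested as the difference of the stress effects, given with the stress comparisons.

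None of the 9 markers passed the edgeR test for an effect of chronic stress in either region. In dorsal hippocampus 0 of the 9 were called and 0 had an unadjusted p under 0.05, with 0% of all genes called and 152 genes (0.854%) at that unadjusted p. In ventral hippocampus the counts for the markers were also 0 and 0, with 0% of all genes called and 142 (0.797%) at the unadjusted p. DESeq2 and limma-voom called 0 of the 9 as well, and over all genes they called 1 and 0 in each region. For none of the 9 did stress and control libraries separate, against 5.13% of genes in dorsal and 2.86% in ventral hippocampus. A p above the threshold does not show equal levels, and the 95% intervals give the range of sizes around each estimate.

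The intervals were narrowest for LAMP5 and LHX6. For LHX6, stress over control was 1.15-fold in dorsal (95% interval 0.864 to 1.53) and 1.14-fold in ventral hippocampus (0.854 to 1.51). The ratio of LAMP5 was 0.943 in dorsal (0.710 to 1.25) and 1.12 in ventral (0.843 to 1.48). For NDNF it was 0.999 in dorsal (0.661 to 1.51) and 1.22 in ventral (0.812 to 1.84). A 2-fold change in either direction lies outside all of these intervals for the 3 markers that separated the regions. PVALB had ratios of 0.945 (0.562 to 1.59) and 0.801 (0.477 to 1.35). CNR1 had 1.21 (0.664 to 2.2) and 1.24 (0.680 to 2.25), and RELN 1.11 (0.510 to 2.43) and 1.13 (0.521 to 2.47). The intervals were wider for the remaining markers. The peptide CCK had ratios of 1.14 (0.471 to 2.78) and 0.900 (0.371 to 2.18), NPY had 0.709 (0.230 to 2.19) and 1.05 (0.340 to 3.22), and ERBB4 had 1.5 (0.403 to 5.58) and 0.918 (0.255 to 3.30).

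**Figure D3:**
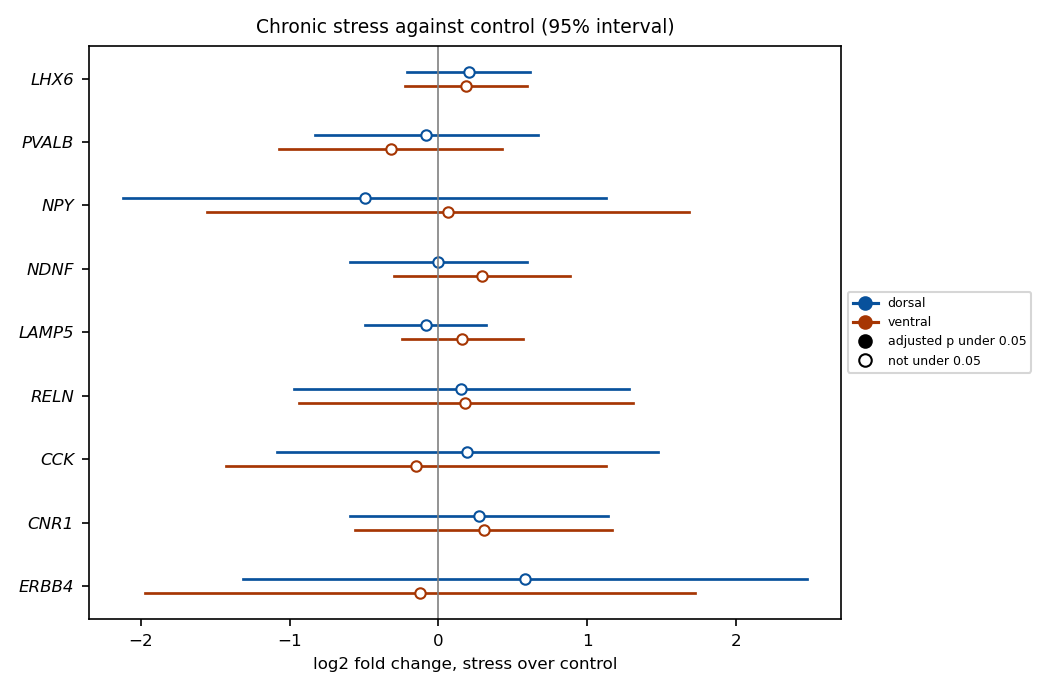
Log2 fold change (chronic stress over control) of the 9 markers with counts in dorsal and ventral hippocampus, with 95% intervals. All intervals include 0, and those of NPY and ERBB4 are the widest.

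The difference between the stress effects of the 2 regions was also tested, and 0 of the 9 markers and 0% of all genes were called (46 genes, 0.258%, at an unadjusted p under 0.05, none of them a marker; DESeq2 and limma-voom called 0 of the 9). For LHX6 the dorsal minus ventral difference of log2 stress effects was 0.02 (95% interval -0.57 to 0.60). For NDNF it was -0.29 (-1.13 to 0.55) and for LAMP5 -0.25 (-0.82 to 0.33). ERBB4 had the largest value of the 9, 0.71, with an interval from -1.94 to 3.35.

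The markers differed from each other in how much they varied inside a group, and the variable ones moved together. The first principal component of log2 CPM after the group means were removed held 66.1% of the variance within groups over all tested genes. Library scores on it ran from -96.6 in ventral control 1 to 112 in ventral control 3. In the order dorsal control, dorsal stress, ventral control and ventral stress, replicate 1 scored -64.5, -77.4, -96.6 and -12.1. Replicate 2 scored 44.1, 19.9, -15.3 and -52.9, and replicate 3 scored 20.4, 57.5, 112 and 65. The score was thus negative in each replicate 1 and positive in each replicate 3. NPY, CCK and PVALB fell along this axis by 1.42, 0.985 and 0.535 on the log2 scale per 100 score units. RELN, CNR1 and ERBB4 rose along it by 0.911, 0.683 and 1.21. LAMP5 (-0.14), LHX6 (0.157) and NDNF (0.385) had shallow slopes. The component held 96.4% of the within-group spread of NPY, 98% of RELN, 96.9% of CNR1, 78.8% of NDNF, 48.9% of LHX6 and 28.8% of LAMP5, with a median of 71.3% over all tested genes. These are descriptions, since the markers are among the genes from which the component was computed.

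Within ventral control the highest library was 8.39-fold above the lowest for NPY, 6.55-fold for ERBB4, 3.84-fold for RELN and 3.61-fold for CCK, where the median over all tested genes was 2.24-fold. In the same group NPY was highest and RELN lowest in replicate 1, and the order was turned in replicate 3. The highest to lowest ratio stayed between 1.17 and 1.33 in all 4 groups for LHX6 and between 1.15 and 1.41 for LAMP5. With the component as a covariate, 7 of the 9 markers were called between the regions over both conditions, all but NPY and ERBB4: CCK (-1.55, adjusted p = 1.81e-05), RELN (-0.94, 2.14e-06), PVALB (-0.57, 0.00108) and CNR1 (-0.32, 0.00354) joined the 3 (edgeR). In that fit 3761 of all genes were called. The component was estimated from the same residuals that the test uses, so these p-values are too small. What the component stands for was not tested.

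**Figure D4:**
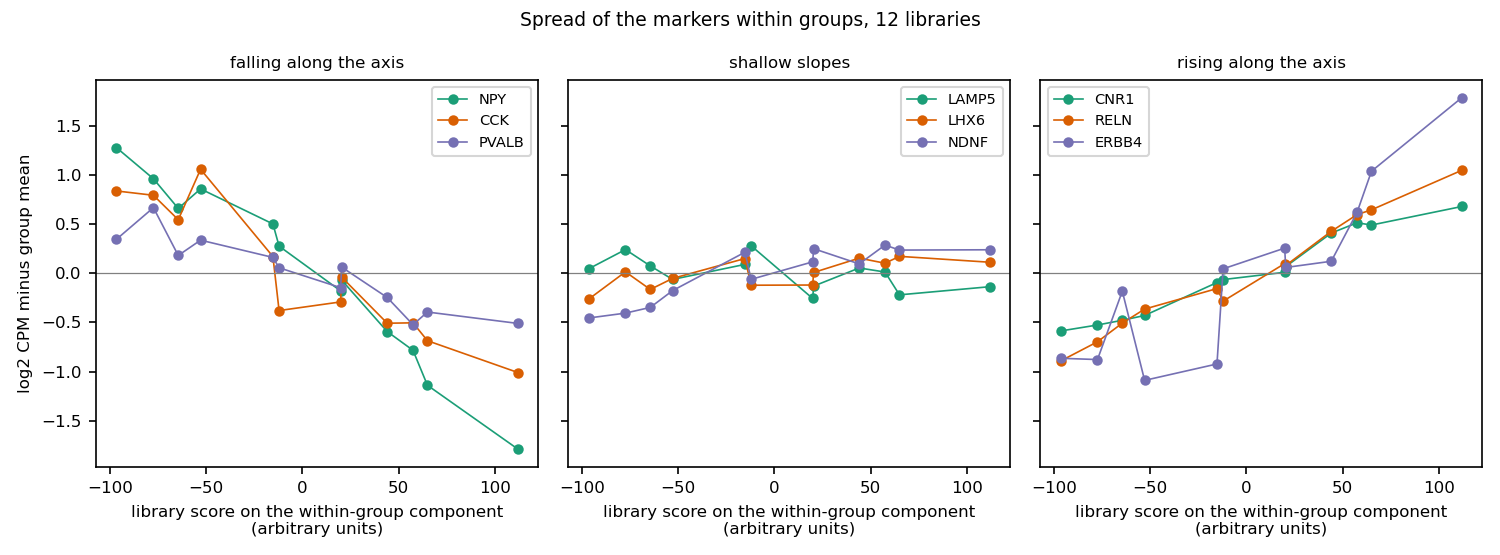
Log2 CPM minus the group mean of the 9 markers (vertical) against the library score on the first within-group component (horizontal, arbitrary units), 1 point per library. NPY, CCK and PVALB fall from left to right, CNR1, RELN and ERBB4 rise, and LAMP5, LHX6 and NDNF have slopes between -0.14 and 0.385 per 100 units.

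Other genes of the interneuron classes were read from lists chosen with earlier results of these data known. Over all 19 lists, which also cover receptors and other cell types, 112 genes besides the markers were tested between the regions, and 9 were called higher and 20 lower in dorsal. Of all 17806 genes tested, 1.44% were called higher and 3.07% lower, the shares against which each list count below stands. Among genes of general GABAergic identity, 2 of 9 were called, both lower in dorsal, and all 9 had a negative sign (median log2 fold change -0.53, against -0.02 for all genes). GAD1, a GABA-synthesising enzyme, had -0.51 ± 0.10 (adjusted p = 0.0154, edgeR) and the homeobox gene DLX6 -1.03 ± 0.25 (0.0459). The second GABA-synthesising enzyme GAD2 had -0.09 (adjusted p = 1), and SLC32A1, the vesicular GABA transporter, -0.57 ± 0.23 (0.28, edgeR). The call of GAD1 ended without dorsal control 2, dorsal control 3 or dorsal stress 2 (adjusted p up to 0.0563), and that of DLX6 without any of 11 of the 12 libraries (up to 0.126). Of the other genes of the medial ganglionic eminence lineage, 0 of 6 were called (edgeR). The lowest p belonged to ETV1 (-1.95, adjusted p = 0.0691). Of 8 genes of the caudal lineage, 2 were called and lower in dorsal: the nuclear receptor NR2F2 (-2.38 ± 0.19, 0.000226) and the serotonin receptor subunit HTR3A (-1.60 ± 0.39, 0.0427, lost without any of 10 libraries, up to 0.122). ADARB2, a further caudal lineage gene, had 1.67 (0.0969, edgeR). The caudal list was split in sign, with 4 genes positive and 4 negative (median log2 fold change 0.39).

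The somatostatin class could be read from genes other than SST. Of its 8 tested genes 5 were called, all lower in dorsal, and all 8 had a negative sign (median -1.43, edgeR). CHODL, which marks long-range somatostatin cells, was at 1.19 ± 0.389 CPM (SD, n = 3) in dorsal control, 0.848 ± 0.187 in dorsal stress, 6.86 ± 1.34 in ventral control and 5.29 ± 1.99 in ventral stress. Its log2 fold change was -2.57 ± 0.28 (adjusted p = 0.000909, edgeR). CORT, which encodes the related peptide cortistatin, had 5.21, 4.74, 22.6 and 20.5 CPM in the same order of groups (-2.11 ± 0.41, 0.0155). NOS1, the neuronal nitric oxide synthase of ivy, neurogliaform and long-range cells, had 25.3, 33.5, 90.5 and 84.8 CPM (-1.59 ± 0.21, 0.00236). CRHBP (-1.98 ± 0.41, 0.0226) and the nociceptin precursor PNOC (-1.06 ± 0.26, 0.0458; named after its value was seen) were the remaining calls. CHODL and NOS1 stayed called without each library in turn. The calls of CORT (2 libraries, dorsal control 3 and dorsal stress 2), CRHBP (8 libraries) and PNOC (10 libraries) ended without certain single libraries, with adjusted p up to 0.0564, 0.0656 and 0.129 (edgeR). The summed level of the 9 class genes found in the table, SST not among them, was 57.8 to 73.3 CPM over the dorsal and 133 to 206 CPM over the ventral libraries.

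In the neurogliaform and ivy list, 2 of 5 genes besides the markers were called and lower in dorsal. CPLX3, a complexin of neurogliaform cells that deep cortical layers also express, had group means of 1.82 (control) and 1.86 CPM (stress) in dorsal and of 32.7 and 28.4 CPM in ventral hippocampus (-4.03 ± 0.32, adjusted p = 0.000259, edgeR). The other was NOS1, which is also counted in the somatostatin class. SV2C, a synaptic vesicle protein, had -1.55 ± 0.52 (adjusted p = 0.153, edgeR). CACNA2D1 had -0.46 ± 0.30 (adjusted p = 0.678, edgeR), and ID2, named only to complete the list, had -0.04 ± 0.13. Hence NDNF, CPLX3 and NOS1 were lower in dorsal and LAMP5 was higher. NPY, RELN, SV2C, CACNA2D1 and ID2 did not pass the test. Of 7 parvalbumin class genes, 1 was called: ACAN, the core protein of perineuronal nets, was lower in dorsal (-1.25 ± 0.26, adjusted p = 0.0218, edgeR), and the call ended without any of 7 libraries (up to 0.0582). Of 7 genes of the VIP and calretinin class, 3 were called and lower in dorsal: PENK (-3.42 ± 0.26, 0.000226), CRH (-3.08, 0.00102) and VIP (-1.12 ± 0.27, 0.0412, lost without any of 10 libraries, up to 0.101). PENK and CRH encode the precursors of enkephalin and corticotropin-releasing hormone. Of 4 further genes of the CCK and cannabinoid receptor class, 0 were called (median 0.45, edgeR).

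**Figure D5:**
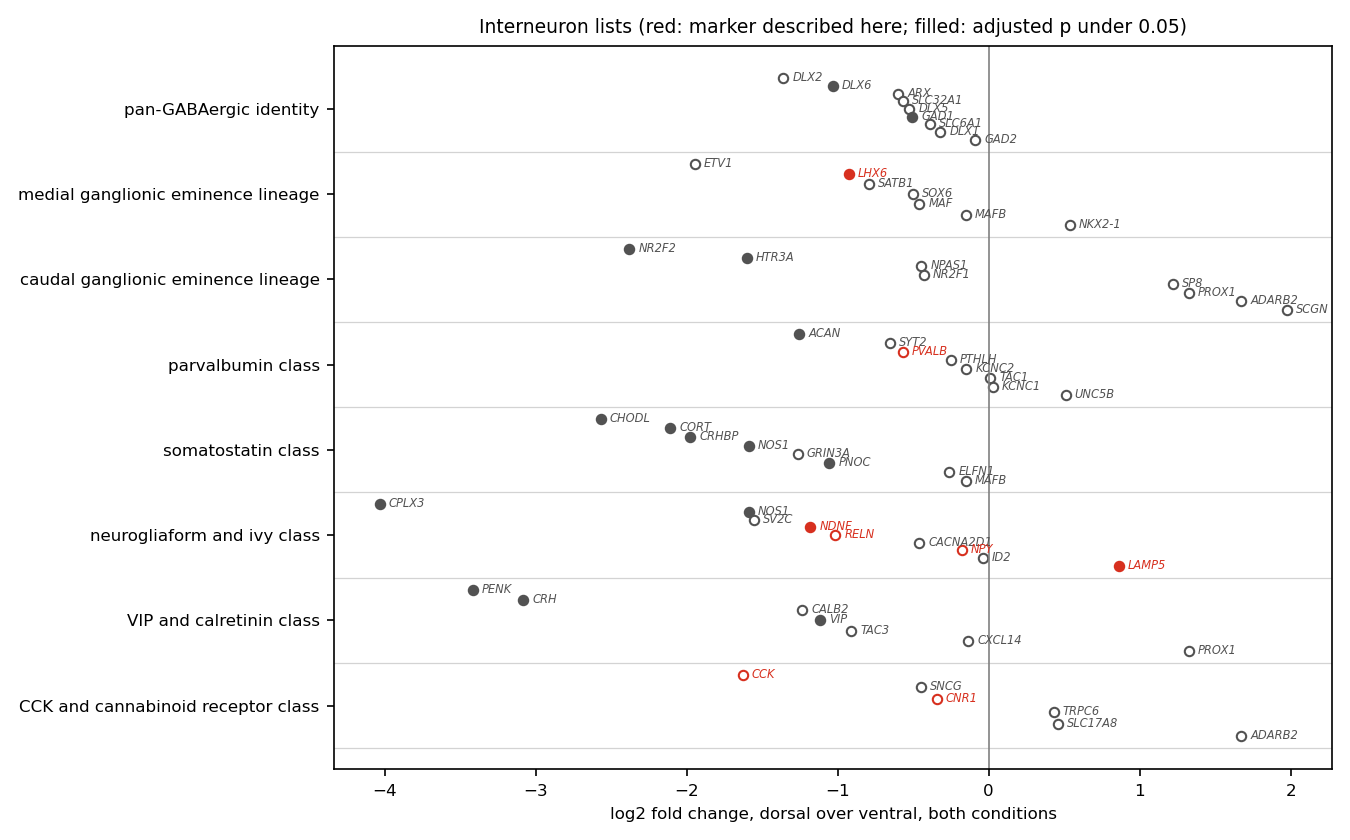
Log2 fold change (dorsal over ventral, both conditions) of the tested genes in 8 interneuron lists, 1 row of points per list; red points are the markers described here and filled points have an adjusted p under 0.05. The somatostatin class genes all lie left of 0, and in the neurogliaform list LAMP5 (0.86) lies opposite to NDNF (-1.18) and CPLX3 (-4.03).

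The receptors and partners of the marker peptides were read in the same comparison. Both cholecystokinin receptor genes were called and lower in dorsal. CCKBR, the main brain form, had 18.4 ± 5.06 CPM (SD, n = 3) in dorsal control, 17.1 ± 6.03 in dorsal stress, 61.3 ± 19.0 in ventral control and 62.4 ± 25.7 in ventral stress (-1.80 ± 0.28, adjusted p = 0.00532, edgeR). CCKAR was near 0 in dorsal (means of 0.028 and 0 CPM) and at 1.04 and 0.596 CPM in ventral control and stress (adjusted p = 0.0218, edgeR), and its call ended without any of 4 libraries (up to 0.0578). Of 3 neuropeptide Y receptor genes tested, NPY5R was called and higher in dorsal (0.89 ± 0.21, adjusted p = 0.0352, lost without any of 9 libraries, up to 0.105). NPY1R (0.42, 0.485) and NPY2R (-0.29, 1) did not pass the test. SSTR1 was called and lower in dorsal (-0.55 ± 0.13, adjusted p = 0.0302, edgeR, lost without any of 8 libraries, up to 0.0982). The other somatostatin receptors tested, SSTR2 (-0.00) and SSTR3 (-0.18), were not.

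For RELN, 0 of 6 genes of its receptor and adaptor list were called; VLDLR had -0.39 (adjusted p = 0.313) and LRP8 -0.14 (0.917, edgeR). For ERBB4, 0 of 7 genes among the neuregulins and their receptors were called, with ERBB3 at 0.60 ± 0.18 (adjusted p = 0.1, edgeR). Around CNR1, 1 of 7 genes of the endocannabinoid list was called: DAGLA, which makes 2-arachidonoylglycerol, was higher in dorsal (0.93 ± 0.19, adjusted p = 0.0218, edgeR). That call ended without any of 6 libraries (up to 0.0607). In the stress comparisons 0 of the 112 list genes were called in either region by edgeR, with 3 and 2 at an unadjusted p under 0.05 in dorsal and ventral hippocampus. Of all genes tested, 0.854% and 0.797% had such an unadjusted p.

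Markers of other cell types also moved with region. The summed level of 8 pallial excitatory neuron markers was 3790 to 3860 CPM in dorsal control, 4210 to 4660 in dorsal stress, 2520 to 2900 in ventral control and 2470 to 3330 in ventral stress. Of these 8 genes, BHLHE22, NEUROD2 and CAMK2A were called higher and SLC17A6 lower in dorsal (edgeR); the calls of NEUROD2 and CAMK2A ended without any of 10 and 7 libraries (adjusted p up to 0.112 and 0.0814). The sum of 8 oligodendrocyte markers was 6870 to 11300 CPM in dorsal and 4020 to 8470 CPM in ventral libraries. The sum of 9 choroid plexus markers was 446 to 2930 CPM in dorsal and 161 to 509 CPM in ventral libraries, with no marker at 0 throughout. TTR, the carrier protein transthyretin, made up most of that sum. Without it the sum of the other 8 was 85.9 to 150 CPM in dorsal and 95.9 to 241 CPM in ventral libraries. SLC13A4 was the largest part of that remainder (-0.79 ± 0.21, adjusted p = 0.0615, edgeR). Of the 9 genes 5 had a positive and 4 a negative fold change, and 3 were called, all higher in dorsal. These were TTR (3.54 ± 0.68, adjusted p = 0.0151), CLIC6 (1.87 ± 0.32, 0.0077) and AQP1 (3.245 ± 0.66, 0.0206, edgeR). The call of AQP1 ended without any of 6 libraries (up to 0.056). The choroid plexus score is the mean log2 CPM of the 9 choroid plexus genes, each with the same weight. With the choroid plexus score as covariate, LHX6 (-1.10, adjusted p = 0.043), NDNF (-1.78, 0.0222) and LAMP5 (1.06, 0.0441) were still called over both conditions by edgeR. The same covariate ended the calls of GAD1, DLX6, HTR3A, ACAN, CORT, CRHBP, PNOC, CRH, VIP, CCKBR, NPY5R, SSTR1, BHLHE22 and CAMK2A. It also ended those of TTR, CLIC6 and AQP1, which are themselves part of the score. NR2F2, CHODL, NOS1, CPLX3, PENK, CCKAR, DAGLA, NEUROD2 and SLC17A6 were still called. The score was 1.862 to 3.391 in dorsal and 1.374 to 2.156 in ventral libraries, so it nearly follows region. Calls lost or kept in this fit therefore cannot tell the score and the region apart. The part of the excitatory and oligodendrocyte markers in the results for the interneuron markers was not tested.

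Cajal-Retzius markers bear on RELN and NDNF, which those cells also express. TP73, the defining factor, was at 1.35 to 3.80 CPM in dorsal and 0.952 to 2.19 CPM in ventral libraries, and LHX5 was near 0 (0 to 0.245 CPM over all libraries). The sum of the 5 Cajal-Retzius genes besides RELN and NDNF, most of it CALB2, was 27.1 to 131 CPM in dorsal and 106 to 312 CPM in ventral libraries. None of the 4 tested was called (edgeR). Striatal projection neurons, which also make enkephalin, bear on the PENK value. The dopamine receptor gene DRD1 was at 0.899 to 2.18 CPM in dorsal and 10.8 to 25.3 CPM in ventral libraries (-3.53, adjusted p = 0.000452, edgeR). The sum of the 8 striatal markers overlapped between the regions (83.7 to 150 and 79.8 to 130 CPM), and ISL1 was at 0 to 0.056 CPM. The part of either cell type in the marker results was not tested.

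The genes closest in pattern to the 3 called markers were found by the root mean square difference of centred log2 CPM over the 12 libraries, among 12595 genes. Nearest to LHX6 were EPHA10 (0.115), RND1 (0.133) and EFNB3 (0.136), where the median gene had 0.623. Nearest to NDNF were ADAM19 (0.173), PKIB (0.181) and HACD4 (0.191), with a median of 0.746. Nearest to LAMP5 were CSGALNACT1 (0.13), RAPGEFL1 (0.142) and MARC1 (0.155), with a median of 0.599. LHX6 thus had the closest neighbour of the 3.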

How the data were processed

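Libraries were made from polyadenylated RNA with a stranded kit, per the labels' protocols. The authors deposited 1 table of whole-number gene counts, not normalised, with 1 column per library. Per the submitters' processing notes, reads were handled with featureCounts 2.0.0, SAMtools 1.9, TopHat2 2.1.1 and Bowtie2 2.3.5.1, besides FastQC and bcl2fastq 2.20, with no order or role stated. The build, annotation, strand setting and treatment of multiply mapped reads are not given in the sources used, so antisense or close copies cannot be told apart and no positions are printed. Genes were named by GeneID from RefSeq's gene list for ARS-UI_Ramb_v3.0, a sheep assembly (412 placeholders received a symbol), which served for names alone.

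The test was run with edgeR 4.0.16 in R 4.3.3: filterByExpr by group (17806 of 33609 genes kept, 9337 had no count), TMM, a robust quasi-likelihood fit with 4 group means, and Benjamini-Hochberg adjustment over all tested genes. Log2 CPM used a prior count of 2. In 6 comparisons, the regions were set against each other (all ewes, control ewes, stressed ewes), as were stress and control (in each region), and the stress effects of the regions. DESeq2 1.42.0, limma-voom (limma 3.58.1) and the further alternatives of the closing section were run, and the script was tested on simulated data. The markers, lists and tests were chosen with earlier results of these data known. All 10 markers are named, with up to 4 genes per list by smallest p in the regional comparison over both conditions, GAD1, GAD2 and SLC32A1, and the 3 genes nearest in pattern to each called marker.

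Replicate numbers come from the sample titles, which do not say what they mark. Deviations from the group means of same-numbered control and stress libraries correlated over genes at 0.712, 0.322 and 0.285 in dorsal and 0.241, 0.307 and 0.787 in ventral hippocampus. Those of same-numbered dorsal and ventral libraries correlated at 0.717, -0.119 and 0.373 in control and 0.208, -0.233 and 0.761 in stress. Control and stress libraries hold different ewes, so the first set shows no pairing of animals. Since 1 component held 66.1% of the variance of these deviations, the correlations cannot settle what the numbers mark. The reported fit paired no libraries by number, and fits with the number as a block were run as alternatives.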

Additional observations from a re-analysis of the deposited data

How the results depend on the processing

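The stress comparisons and the difference of stress effects called 0 of the 9 markers under every alternative run, the replicate block included. Over both conditions the regional comparison called 3 markers, and 3 to 4 when each library was left out in turn. It called 5 with the replicate number as a block (replicate block, CCK and RELN added), 7 with the first within-group component and 0 with the GABA score as covariate. In control ewes it called 2 as reported, 0 to 2 when each library was left out, 0 with no filter, with the GABA score, with the choroid plexus score or without the 2 libraries farthest out on the within-group component (ventral control 3 and ventral control 1, an alternative chosen after seeing the data). It called 1 with the replicate block by condition or thinned counts, and 6 with the component as covariate. In stressed ewes it called 0 as reported, 0 to 2 when each library was left out, 3 with DESeq2 or the replicate block, 1 with the choroid plexus score and 7 with the component. The cause of these moves was not tested. Size factors of the DESeq2 type, a minimum of 1 CPM in 3 libraries and limma-voom left these counts at 3, 2 and 0. No called marker changed sign under any alternative.

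Calls over all genes in the 3 regional comparisons (both conditions, control, stress) were 803, 178 and 79 as reported. They were 1558, 728 and 580 with DESeq2, 1375, 440 and 314 with the replicate block, 3761, 2003 and 1589 with the component, 273, 4 and 89 with the choroid plexus score, 0 in each with the GABA score, and 767, 194 and 29 with limma-voom. Without the 2 farthest libraries they were 716, 46 and 143. Leaving out each library gave 420 to 1091, 2 to 319 and 1 to 159. Higher calls were 32.0% of all calls over both conditions, and 48.6% with the component as covariate. The row of ERBB4 had 6 to 83 counts per library, and how much of its error comes from depth was not tested.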

Other observations

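Set against the mean log2 CPM of GAD1, GAD2 and SLC32A1 in the same library, the regional difference of the markers was negative for some and positive for others. The dorsal minus ventral difference of this log2 ratio was 1.24 for LAMP5, where the 6 dorsal and 6 ventral libraries did not overlap. They overlapped for the other 8 markers. The difference was -0.54 for LHX6, -0.80 for NDNF, -1.14 for CCK, -0.56 for RELN and -0.20 for PVALB. It was 0.06 for CNR1, 0.41 for NPY and 0.55 for ERBB4, all 3 opposite in sign to their plain fold changes. These values are descriptions without a test, and the denominator itself was lower in each dorsal library.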
